A study of Sus scrofa with 8 samples.

Results

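Myosin heavy chains were followed through the 5 genes MYH1, MYH3, MYH7, MYH9 and MYH10, taken as the rows of the deposited table whose gene name equals one of these symbols. Each symbol had 1 row, so that 5 of the 25285 genes in the table were selected. RNA was sequenced from primary cells of porcine skeletal muscle grown in culture, from pigs whose strain the labels give as LYD. The differentiated cultures gave 2 libraries from females and 2 from males, and the undifferentiated cultures likewise gave 2 from females and 2 from males. The protocol names the cells MuSCs for both states. Age, genotype, the number of animals, the culture media and the days in culture are not given in the sources used here. No label says that the libraries of a group came from separate animals, so p-values measure the spread between these libraries, which may be technical.

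A myosin heavy chain carries the motor head that binds actin and splits ATP, and a coiled-coil tail through which the molecules pack into filaments. MYH3 encodes the embryonic form of developing skeletal muscle, MYH7 the slow form also found in heart ventricle, and MYH1 a fast form of adult muscle. MYH9 and MYH10 encode the heavy chains of non-muscle myosin IIA and IIB, which build stress fibres and the contractile ring of dividing cells and do not form sarcomeres. Developing muscle fibres are known to make embryonic and slow heavy chains before the adult fast forms.

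Positions are those of the deposited table, on Sscrofa10.2. MYH3 (ENSSSCG00000018007) spanned chromosome 12 from 58110959 to 58132945 on the plus strand. MYH10 (ENSSSCG00000017987) spanned chromosome 12 from 56123373 to 56235644, MYH9 (ENSSSCG00000000145) chromosome 5 from 9077726 to 9165953, and MYH7 (ENSSSCG00000002029) chromosome 7 from 81066278 to 81088373, all on the minus strand. The row named MYH1 (ENSSSCG00000018005) lay on chromosome 12 from 57967161 to 57984754 on the plus strand. These spans are whole genes with exons and introns.

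The names of 2 of the rows differed between sources. An Ensembl identifier table gives ENSSSCG00000018005 the symbol MYH8, the perinatal heavy chain, in place of MYH1. In the deposited table that row stood next to MYH13, whereas RefSeq's order of genes on Sscrofa11.1 has MYH1 between MYH4 and MYH2. It is therefore called the MYH1 row here, and the data cannot tell which of these genes its fragments came from. The same identifier table gives ENSSSCG00000002029 the symbol MYH6, the atrial form, in place of MYH7. The deposited table has the microRNA row ssc-mir-208b inside the MYH7 row, and RefSeq has MIR208B inside its MYH7. Muscle heavy chain genes have long near-identical stretches, and how the authors' counting divided fragments between them is not given in the sources used here.

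The values are FPKM, in which fragment numbers are divided by transcript length and by the size of the library, so that levels can be compared between genes. How many reads each library held is unknown. Compared with the shallowest library, differentiated female replicate 1, the depth estimated from low values was up to 1.63 in differentiated libraries and 1.68 to 2.28 in undifferentiated ones. The myogenic markers desmin (DES), MYOG, MYOD1, NCAM1 and CDH15 were present in every library, and their summed level was 2292 to 3152 FPKM in differentiated libraries and 548 to 895 FPKM in undifferentiated ones. PAX7 and MYF5, also listed as myogenic markers, had no row matched by symbol. Since these are bulk samples, fewer cells of a type and less RNA per cell cannot be told apart.

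The comparison of differentiated with undifferentiated cells asked which heavy chains changed with the state of the cultures. The 3 muscle forms MYH3, MYH7 and the MYH1 row rose and the non-muscle forms MYH9 and MYH10 fell. Of the 12963 genes tested, 18.0% rose and 31.9% fell, 50.0% together (limma, Benjamini-Hochberg adjusted p under 0.05), so that passing the test was common in this comparison. The split was 2339 genes higher and 4137 lower as deposited, and 3220 higher and 2920 lower after median-ratio scaling, which raised the median of all genes by 0.20 on the log2 scale and left the direction and call of the 5 members as they were. The differences are on the scale of log2(FPKM + 1), which understates the change of genes with low values. The median difference of all tested genes was -0.18.

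MYH3, the embryonic form, had the highest level of the 5 genes in differentiated cells. It was at 4767 and 5098 FPKM in differentiated female libraries and 3489.7 and 4283 FPKM in differentiated male ones, against 2.93 and 8.88 FPKM in undifferentiated female libraries and 2.15 and 3.04 FPKM in undifferentiated male ones. Every differentiated library was far above every undifferentiated one, and the range within the differentiated libraries was narrow beside that gap. Among the 22172 genes spanning at least 300 bp it ranked between 8 and 10 by FPKM in the differentiated libraries, and between 7289 and 10774 in the undifferentiated ones. The log2 difference was 9.86 ± 0.295 (SE, n = 4 libraries per state, limma adjusted p = 8.45e-06), and 12 of the tested genes had a larger one.

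MYH7, the slow form, was at 384 and 352 FPKM in differentiated female libraries and 123 and 254 FPKM in differentiated male ones, against 0.0266, 0.418 and 0.00766 FPKM in 3 undifferentiated libraries and a listed 0 in undifferentiated male replicate 2. The states did not overlap, but the differentiated libraries themselves spread 3.11-fold between the lowest and the highest. The log2 difference was 7.86 ± 0.243 (SE, n = 4 per state, limma adjusted p = 9.09e-06). MYH7 ranked between 174 and 584 in the differentiated libraries.

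The MYH1 row was far lower than MYH3 and MYH7. It was at 32.8 and 11.8 FPKM in differentiated female libraries and 24.5 and 8.66 FPKM in differentiated male ones, against a listed 0 in 3 undifferentiated libraries and 0.0278 FPKM in undifferentiated male replicate 1. Its coefficient of variation among the differentiated libraries was 57.8%, the widest of the 5 genes, against 42.1% for MYH7 and 15.8% for MYH3. The log2 difference was 4.17 ± 0.417 (SE, n = 4 per state, limma adjusted p = 0.000605).

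MYH9, the heavy chain of non-muscle myosin IIA, fell but stayed abundant. It was at 94.9 and 84.8 FPKM in differentiated female libraries and 148 and 91.3 FPKM in differentiated male ones, against 286 and 202 FPKM in undifferentiated female libraries and 294 and 244 FPKM in undifferentiated male ones. The states did not overlap, and differentiated male replicate 1 stood above the other 3 differentiated libraries. The mean in differentiated cells, 105 ± 29.2 FPKM, was 40.8% of the 257 ± 42.3 FPKM in undifferentiated cells (SD, n = 4 each). The log2 difference was -1.30 ± 0.196 (SE, limma adjusted p = 0.00261).

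MYH10, the heavy chain of non-muscle myosin IIB, fell by nearly the same proportion from a much lower level. It was at 3.94 and 4.19 FPKM in differentiated female libraries and 3.94 and 4.32 FPKM in differentiated male ones, against 9.46 and 9.57 FPKM in undifferentiated female libraries and 11.2 and 11.1 FPKM in undifferentiated male ones. It varied least of the 5 genes, with coefficients of variation of 4.58% in differentiated and 9.19% in undifferentiated libraries. Its mean in differentiated cells was 39.7% of that in undifferentiated cells, and the log2 difference was -1.15 ± 0.0908 (SE, n = 4 per state, limma adjusted p = 0.000276).

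**Figure D1:**
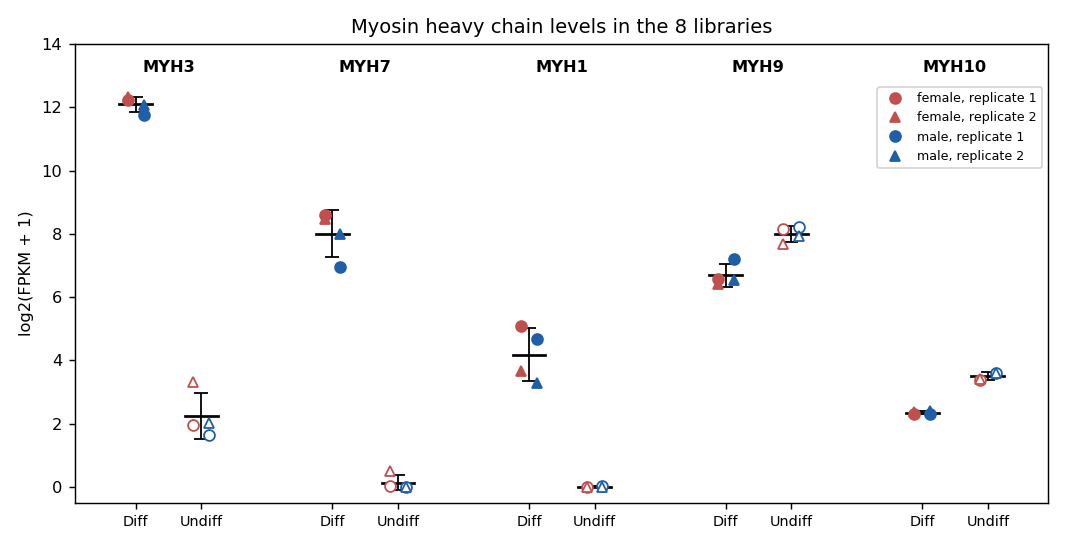
Level of each gene on the scale of log2(FPKM + 1) in the 4 differentiated (filled) and 4 undifferentiated (open) libraries. Colours give the sex, symbols the replicate number, and the lines the mean ± SD of the 4 log2 values. MYH3, MYH7 and the MYH1 row stand higher in every differentiated library than in any undifferentiated one, and MYH9 and MYH10 lower.

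The order of the levels changed with the state. In differentiated cells it was MYH3, MYH7, MYH9, the MYH1 row and MYH10. MYH7 and MYH9 overlapped in that order, and in differentiated male replicate 1 MYH7 was below MYH9, at 123 against 148 FPKM. All other neighbours were separated across the 4 libraries. In undifferentiated cells the order was MYH9, MYH10, MYH3, MYH7 and the MYH1 row. There MYH10, at 9.46 to 11.2 FPKM, lay above MYH3, at 2.15 to 8.88 FPKM, in every library, while MYH7 and the MYH1 row overlapped near 0.

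Shares within a library do not depend on the scaling between libraries. MYH3, MYH7 and the MYH1 row together made 98.1%, 98.4%, 96.0% and 97.9% of the summed FPKM of the 5 genes in differentiated female replicates 1 and 2 and male replicates 1 and 2. In the undifferentiated libraries, in the same order, they made 0.990%, 4.21%, 0.710% and 1.18%. The muscle forms thus held nearly the whole sum in one state and a few percent or less in the other. The mean was 97.6 ± 1.10% in differentiated and 1.77 ± 1.64% in undifferentiated cells (SD, n = 4 each, exact permutation test, two-sided, p = 0.0286, adjusted p = 0.0429 over 6 tests of shares and ratios). This p is the smallest that 70 splits of 4 against 4 libraries can give.

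**Figure D2:**
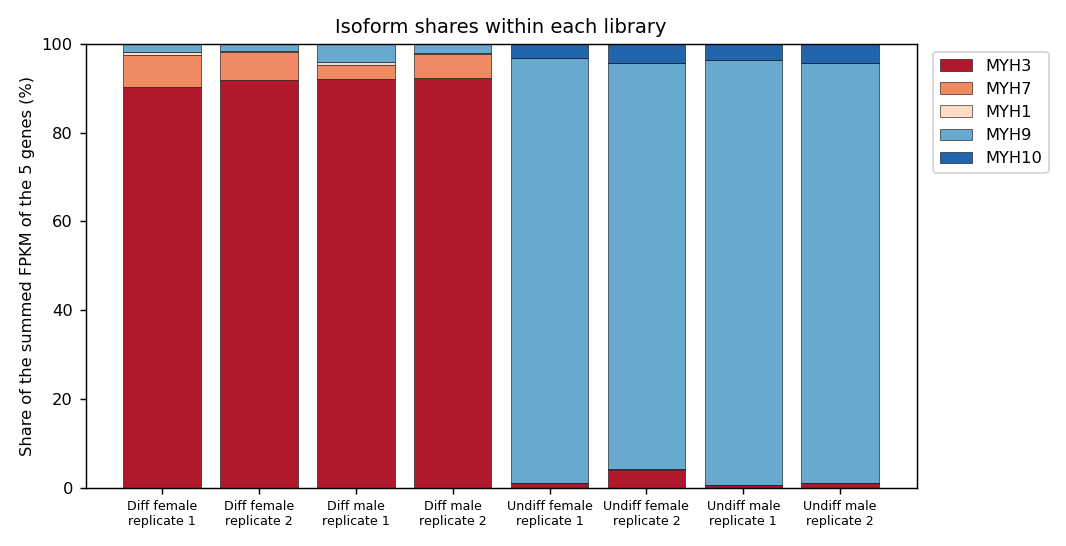
Share of each gene in the summed FPKM of the 5 genes, in percent, for each library as a stacked bar, with the differentiated libraries on the left. MYH3 makes up 90.2% to 92.3% of each differentiated bar, and MYH9 makes up 91.5% to 95.8% of each undifferentiated one.

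Among the 3 muscle forms in differentiated cells, MYH3 held 93.9 ± 1.66%, MYH7 5.71 ± 1.71% and the MYH1 row 0.429 ± 0.261% of their sum (SD, n = 4). The MYH7 share was 7.40% and 6.44% in the female libraries and 3.39% and 5.59% in the male ones. It was lowest in differentiated male replicate 1, where MYH3 was 28.3 times as high as MYH7, against 12.4, 14.5 and 16.9 times in the other differentiated libraries. In undifferentiated libraries MYH3 held between 95.5% and 100% of the same sum, which was a few FPKM and was not tested.

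In differentiated cells the log2 ratio on the FPKM + 1 scale was -4.09 ± 0.512 for MYH7 to MYH3, -7.92 ± 0.925 for the MYH1 row to MYH3 and -3.82 ± 1.18 for the MYH1 row to MYH7 (SD, n = 4). In undifferentiated cells the MYH1 row was listed at 0 in 3 of 4 libraries and MYH7 was near 0, so that the pseudocount set these ratios there. The differences between the states were -1.99, -5.69 and -3.70 with a pseudocount of 1 (exact permutation adjusted p = 0.0429 each) and 0.42, -2.87 and -3.29 with a pseudocount of 0.1 (exact permutation adjusted p = 0.300, 0.0857 and 0.114). No order between the rises of the 3 muscle forms is therefore given.

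No difference in the balance of the non-muscle pair passed the test. MYH10 held 3.95 ± 0.956% of the sum of MYH9 and MYH10 in differentiated cells and 3.94 ± 0.611% in undifferentiated cells (SD, n = 4 each, exact permutation p = 1). The shares ranged from 2.59% to 4.71% in differentiated and from 3.20% to 4.52% in undifferentiated libraries, and overlapped throughout. The log2 ratio of MYH10 to MYH9 differed by 0.16 between the states (exact permutation p = 0.543).

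No member passed the test between the sexes, where 0.0849% of all tested genes did (0.0231% higher and 0.0617% lower in females, limma). None passed the test of a difference in the state effect between the sexes either, where 0.0231% did (0.0154% with a larger and 0.00771% with a smaller effect in females, limma). At an unadjusted p under 0.05, MYH7 alone of the 5 genes was past the threshold between the sexes, where 9.73% of all tested genes were. For the difference in the state effect 0 of the 5 genes were past it, where 6.03% of all tested genes were (limma). MYH7 averaged 368 FPKM in differentiated female and 189 FPKM in differentiated male libraries, and the 2 libraries of each sex did not overlap. Averaged over the states, the female minus male log2 difference of MYH7 was 0.66 ± 0.243 (SE, limma adjusted p = 0.501). MYH3 averaged 4933 FPKM in differentiated female and 3886 FPKM in differentiated male libraries, also without overlap (log2 difference over both states 0.58 ± 0.295 SE, limma adjusted p = 0.555). MYH10 in undifferentiated libraries was the one non-muscle case without overlap, at 9.51 FPKM in females and 11.2 FPKM in males on average. MYH7 in undifferentiated libraries did not overlap either, at 0.222 FPKM in females and 0.00383 FPKM in males on average, both near 0. The share of all genes that separate 2 against 2 libraries is not given here, so no sex difference is read from these gaps.

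The table held 6 further genes with an MYH symbol, of which 4 reached the mean of 1 FPKM needed for the test and 3 rose. MYH13, known from the fast fibres of the eye muscles, was at 39.2 and 76.2 FPKM in differentiated female and 41.7 and 61.6 FPKM in differentiated male libraries, and at most 0.0624 FPKM in the undifferentiated ones (log2 difference 5.71 ± 0.239 SE, limma adjusted p = 2.91e-05). MYH13 was thus above the MYH1 row in each differentiated library. MYH6, the atrial form, was at 7.14, 2.11, 1.33 and 1.40 FPKM in the differentiated libraries (log2 1.78, limma adjusted p = 0.00681). MYH14, the heavy chain of non-muscle myosin IIC, named from the identifier table, averaged 14.2 ± 2.72 FPKM in differentiated and 8.58 ± 0.989 FPKM in undifferentiated cells (SD, n = 4 each, log2 0.65, limma adjusted p = 0.00835). It moved opposite to MYH9 and MYH10, and in differentiated cells it was above MYH10 in all 4 libraries. MYH7B was at 1.67 ± 0.381 FPKM in differentiated and 1.33 ± 0.399 FPKM in undifferentiated cells and did not pass. MYH15 and the smooth muscle form MYH11 stayed under 1 FPKM in every library.

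**Figure D3:**
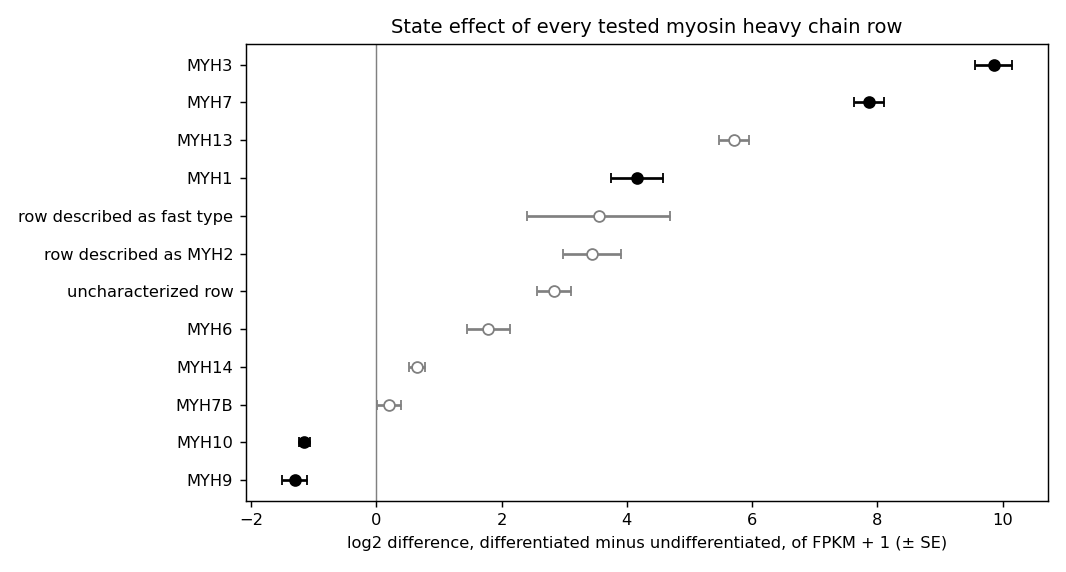
Difference between the states on the scale of log2(FPKM + 1), differentiated minus undifferentiated, for every tested heavy chain row, with the SE of the limma fit. Filled points are the 5 genes, open points the other rows. MYH9 and MYH10 are the rows below 0, at -1.30 and -1.15, and MYH3 is plotted at 9.86. The order of MYH3 and MYH7 depends on the pseudocount of 1. With a pseudocount of 0.1 the difference of MYH7 over MYH3 was 0.42 and was not called, so no order of their rises is read from the plot.

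Beside MYH13 and the MYH1 row, the chromosome 12 cluster held 3 rows without a symbol in the table, chosen here after their values were seen. The row that the table describes as myosin heavy chain 2 (ENSSSCG00000018003), a fast form, was at 14.03, 16.95, 2.48 and 14.64 FPKM in differentiated female replicates 1 and 2 and male replicates 1 and 2 (log2 difference 3.44, limma adjusted p = 0.0017). A short row described as a fast type heavy chain (ENSSSCG00000018006) was listed at 0 in differentiated female replicate 1 and stood at 39.59, 10.96 and 37.76 FPKM in the others. An uncharacterized row between the MYH1 row and the fast type row (ENSSSCG00000029441) was at 3.25 to 8.04 FPKM. The fast type row and the uncharacterized row were listed at 0 in all undifferentiated libraries.

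Within the differentiated libraries the MYH1 row was high where MYH13 and the fast type row were low. In differentiated female replicate 1 and male replicate 1 the MYH1 row was at its 2 highest values, 32.8 and 24.5 FPKM, while MYH13 and the fast type row were at their 2 lowest. The MYH1 row made 45.6% and 37.0% of the sum of MYH1 and MYH13 in those libraries, against 13.4% in female replicate 2 and 12.3% in male replicate 2. That sum, chosen after the values were seen, varied less than either row, at 74.1 ± 9.56 FPKM (SD, n = 4) with a coefficient of variation of 12.9%, against 57.8% for the MYH1 row and 32.0% for MYH13. Whether fragments were divided differently between near-identical genes in these libraries was not tested. All rows of the cluster other than MYH3 together came to 87.5 to 153 FPKM, or 1.87% to 3.02% of MYH3. This wider sum had a coefficient of variation of 27.7%, against 12.9% for the sum of MYH1 and MYH13.

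**Figure D4:**
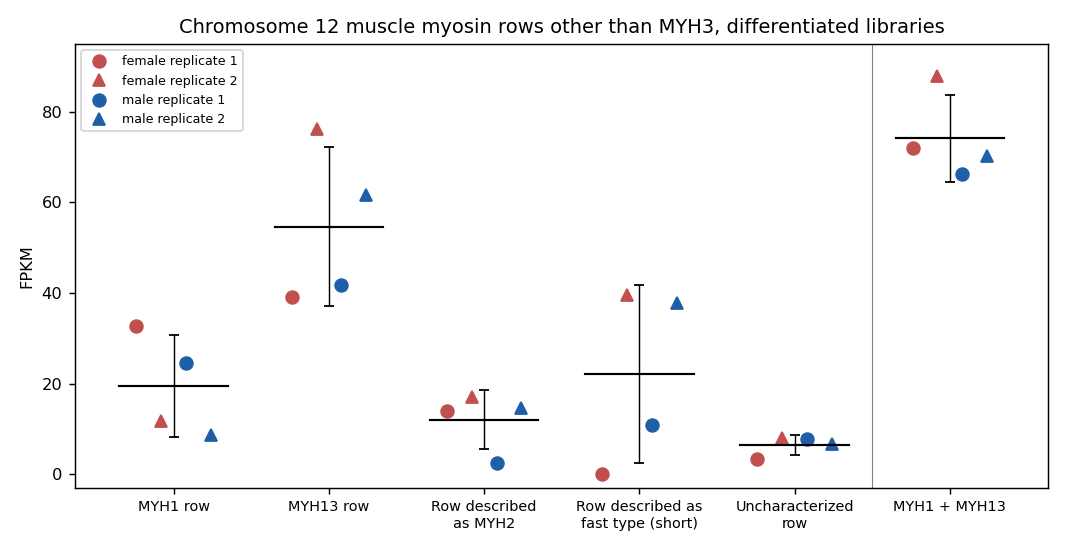
FPKM of the chromosome 12 muscle heavy chain rows other than MYH3 in the 4 differentiated libraries, with the mean ± SD as lines, and at the right the sum of the MYH1 and MYH13 rows. Female and male replicate 1 (circles) are the 2 highest libraries for the MYH1 row and the 2 lowest for MYH13, while the sum stays between 66.3 and 88.0 FPKM.

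Among the partners of the muscle heavy chains, all tested light chain and thick filament genes rose. Of 9 light chain genes listed 3 were tested, and HUMMLC2B (a fast regulatory light chain, log2 10.36), MYL4 (the embryonic and atrial essential light chain, log2 9.99) and MYL1 (the fast essential light chain, log2 8.91) rose. MYL3, the slow essential light chain that pairs with MYH7 in adult slow fibres, stayed under 1 FPKM in all libraries. Of 11 thick filament genes listed 7 were tested and rose, with a median log2 difference of 6.63 against -0.18 over all genes. The highest were MYBPH, a myosin-binding protein (log2 9.24), and the myomesins MYOM2 (log2 8.00) and MYOM3 (log2 7.55), which tie thick filaments together at the M-band.

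Genes of myosin folding and turnover went both ways, with 6 of 11 tested rising and 4 falling (limma). Under median-ratio scaling 7 rose and 2 fell. UNC45B, the muscle form of the chaperone that folds the myosin head, was at 143 ± 28.9 FPKM in differentiated and 2.88 ± 1.503 FPKM in undifferentiated cells (SD, n = 4 each, log2 5.26). SMYD1, a muscle methyltransferase needed for myofibril assembly in zebrafish, also rose (log2 5.42), as did the ubiquitin ligase TRIM55 (log2 4.16). UNC45A, the form of non-muscle cells, fell (log2 -0.56), and HSP90AA1, a chaperone partner of UNC45 proteins, fell as well (log2 -0.84).

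Of 22 tested regulators of muscle heavy chain genes, 14 rose, 3 fell and 5 did not pass. MEF2C, a MADS-box activator of sarcomere genes, rose by a log2 of 7.22, MYOG (myogenin) by 4.07 and VGLL2, a cofactor of TEAD factors, by 4.06. MYOD1, a myogenic determination factor, fell (log2 -0.94). SOX6, a repressor of slow heavy chain genes in mice, had no row matched by symbol, and PPARGC1A was likewise not matched.

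Slow and fast fibre genes rose side by side. Of 6 tested slow genes 5 rose, led by TNNC1 (slow troponin C, log2 7.57), TNNI1 (slow troponin I, log2 6.54) and MYOZ2 (a calcineurin-binding Z-disc protein, log2 5.83), and TPM3, a tropomyosin also made outside muscle, fell (log2 -1.37). All 5 tested fast genes rose, led by TNNC2 (fast troponin C, log2 9.68), MYL1 and ATP2A1 (the fast calcium pump, log2 7.82). PVALB and MYBPC2, fast genes of adult fibres, did not reach 1 FPKM in any library.

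The light chains and controllers of non-muscle myosin II did not move as one, with 5 of 15 tested rising, 6 falling and 4 not passing (median log2 difference -0.17, and 0.06 after median-ratio scaling, under which 6 rose and 5 fell). MYL6, the essential light chain bound by MYH9 and MYH10, was at 35.6 ± 4.89 FPKM in differentiated and 95.8 ± 6.40 FPKM in undifferentiated cells (SD, n = 4 each, log2 -1.41). MYL12B, a light chain of the same list, rose, from 139 ± 6.70 FPKM in undifferentiated to 196 ± 15.1 FPKM in differentiated cells (SD, n = 4 each, log2 0.49). MYL6 and MYL12B lie outside the rule for named genes and were chosen after their values were seen. MYL9, a regulatory light chain of smooth muscle and non-muscle myosin, rose to 154 ± 17.8 FPKM in differentiated cells, against 1.72 ± 0.640 FPKM in undifferentiated cells (log2 5.85). The myosin phosphatase genes PPP1R12B (log2 1.99) and PPP1CB (log2 0.58) rose. S100A4, which binds the tail of non-muscle myosin IIA, fell by 4.78 on the log2 scale, and ANLN, a contractile ring protein, by 2.04. Of 8 tested genes of the non-muscle actin cytoskeleton 7 fell (median log2 difference -1.34), among them the cofilin CFL1 (log2 -1.61), and ACTN4 did not pass. Under quantile normalization 5 of the 8 fell, and after median-ratio scaling 7 fell and 1 rose.

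The 4 differentiated libraries were not alike, and the members followed the split in different ways. Differentiated male replicate 1 had the lowest MYH3 and MYH7 and the highest MYH9, while MYH10 there, at 3.94 FPKM, was within the range of the others. MYH7 in that library was 0.374 times and MYH9 1.64 times the mean of the other 3. Of the non-muscle actin cytoskeleton genes, 7 of 8 were higher in it than in any other differentiated library. The share of all tested genes that were highest in that library is not given here. Without it MYH9 averaged 90.3 ± 5.12 FPKM in differentiated cells (SD, n = 3).

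The marker lists of other cell types went different ways in that library. Among the differentiated libraries, its endothelial and Schwann cell sums were the lowest, at 2.56 and 2.34 FPKM. Its smooth muscle and pericyte sum and its immune sum were the highest, at 1426 and 3.69 FPKM, and its adipocyte sum lay within the range of the others. All 7 tested fibroblast markers were highest there among the differentiated libraries, with a summed level of 1460.3 FPKM. The sum was 1065 FPKM in differentiated male replicate 2, and 622.8 and 599.7 FPKM in the differentiated female libraries. In undifferentiated libraries it was 782 and 524 FPKM in males and 367 and 390 FPKM in females. Both male libraries were thus above both female ones in each state, and no sex difference is read from this gap. Most of the sum in every library came from the collagens COL1A1, COL1A2 and COL3A1. Of these 7 markers 3 rose and 1 fell between the states. FAP, 1 of those that rose, was not called under quantile normalization (limma adjusted p = 0.104) or without differentiated female replicate 1 or any 1 of the 4 undifferentiated libraries (limma adjusted p = 0.0777 to 0.0956). COL1A2, the one that fell, was not called after median-ratio scaling (limma adjusted p = 0.0600) or with 1 mean per state (limma adjusted p = 0.101). COL1A1, a collagen of fibroblasts, was at 783 FPKM in differentiated male replicate 1 and at 165, 178 and 499 FPKM in the other differentiated libraries. All 4 tested proliferation markers were also highest in differentiated male replicate 1, summing to 59.2 FPKM against 14.2 to 21.1 FPKM in the other differentiated and 163 to 238 FPKM in undifferentiated libraries. For these marker lists too, no share over all tested genes is set beside the counts. The part of fibroblasts or of proliferating cells in the levels of MYH3, MYH7 and MYH9 was not tested. Without differentiated male replicate 1 the log2 differences between the states were 9.93, 8.12, 3.82, -1.48 and -1.12 for MYH3, MYH7, the MYH1 row, MYH9 and MYH10.

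**Figure D5:**
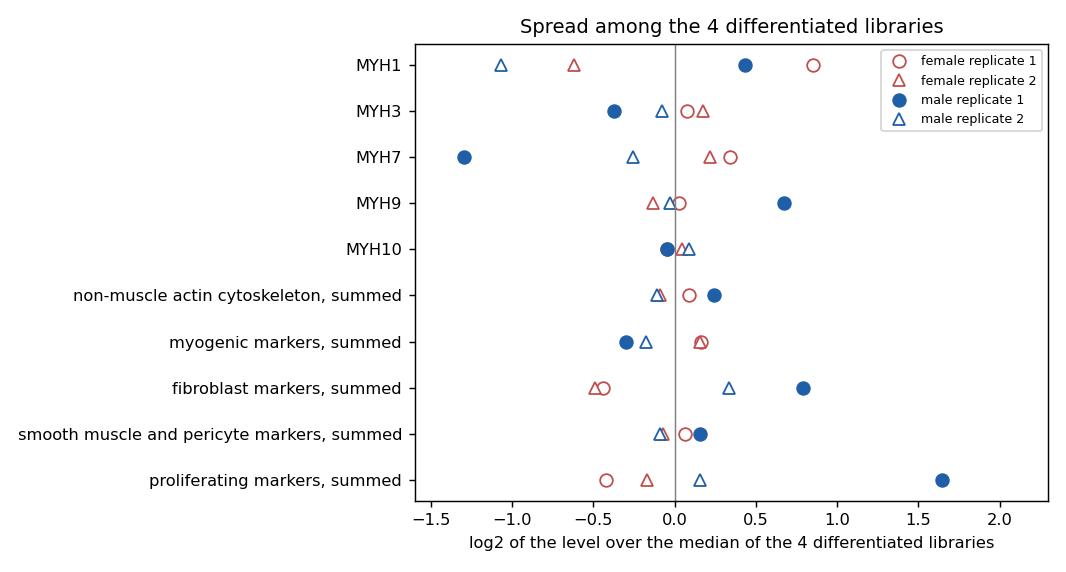
Level in each of the 4 differentiated libraries as the log2 ratio to their median, for the 5 genes and for the summed FPKM of marker lists. Male replicate 1 is filled, and lies lowest for MYH3 and MYH7 (-1.30) and highest for MYH9 (0.67), the fibroblast markers (0.79) and the proliferation markers (1.64).

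The 6 tested smooth muscle and pericyte markers all rose, with a summed level of 1205 to 1426 FPKM in differentiated and 74.2 to 109 FPKM in undifferentiated libraries, most of it ACTA2 at 1091 ± 85.0 FPKM in differentiated cells (SD, n = 4). MYH11, the heavy chain that defines mature smooth muscle, did not exceed 0.0931 FPKM in any library. Of the 4 endothelial and 4 immune markers in the table, 3 and 2 stayed under 1 FPKM everywhere. The endothelial markers summed to 2.56 to 7.53 FPKM in differentiated and 2.25 to 6.31 FPKM in undifferentiated libraries. The immune markers summed to 2.43 to 3.69 FPKM in differentiated and 11.94 to 16.99 FPKM in undifferentiated ones. Most of the immune sum was CD14, which fell (log2 -2.24) and averaged 2.06 FPKM in differentiated and 13.4 FPKM in undifferentiated libraries. Of the cardiac markers NPPB and NKX2-5 stayed under 1 FPKM, and NPPA reached at most 1.97 FPKM. TNNI3 was at 1.81 to 7.64 FPKM in differentiated and 1.11 to 3.70 FPKM in undifferentiated libraries and did not pass. The list summed to 3.43 to 12.5 FPKM in differentiated and 1.11 to 3.70 FPKM in undifferentiated libraries, MYH6 included. The Schwann cell markers summed to 2.34 to 3.68 FPKM in differentiated and 4.30 to 7.21 FPKM in undifferentiated libraries, and the adipocyte markers to 0.906 to 1.69 FPKM in differentiated and 0 to 0.499 FPKM in undifferentiated libraries.

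The genes most like each member were taken from 10181 candidates by the root mean square difference of their centred log2(FPKM + 1) profiles over the 8 libraries, where the step between the states makes up most of every profile. Nearest to MYH3 were MYL4 (0.223), MYBPH (0.388) and TNNC2 (0.496). Nearest to MYH7 were LDB3, a Z-disc protein (0.358), and the myomesins MYOM2 (0.425) and MYOM3 (0.433). The MYH1 row had C10orf71 (0.423), the homeobox gene NOTO (0.443) and TMEM38A, a potassium channel of the sarcoplasmic reticulum (0.479). MYH9 had closer matches, the pocket protein gene RBL1 (0.0969), PTPLAD1 (0.107) and ACTN1, a non-muscle actinin that cross-links actin (0.108). MYH10 had ADAM33 (0.0798), FEZ2 (0.0807) and TMEM98 (0.0822). MYOM2 carries its name from the identifier table.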

How the data were processed

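The deposited table holds 1 FPKM column for each of the 8 libraries, as the authors made them. Per the submitters' processing notes, cutadapt 1.6, TopHat2 2.0.12.1, Cufflinks 2.2.1 and Sscrofa10.2 were used. The settings, the strand mode and the scaling total are not given in the sources used here. Per the labels, a stranded total RNA kit and 100-bp paired ends were used, and the molecule is given as polyA RNA.

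Columns were matched to samples by state, sex and replicate number. Values were taken as log2(FPKM + 1), and the genes averaging 1 FPKM or more were tested with R 4.3.3 and limma 3.58.1 (1 mean per group, no block, eBayes with trend, 4 residual degrees of freedom), two-sided, adjusted by Benjamini and Hochberg over all 12963 genes. "Rose" and "fell" mean an adjusted p under 0.05. The fit was tested on simulated data. Shares and log2 ratios were compared by exact permutation over libraries. Symbols came from the table and, where it had none, from an identifier table that held 11791 of the 25285 identifiers. Of rows sharing a symbol, that with the largest average level was kept. The table held values above 100000 FPKM for 218 genes, 214 of them under 300 bp, and these were kept. Whole reads were not recovered from FPKM, so no count test was used.

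The members, lists and tests were chosen with earlier results of these data known. Named genes were the members, every other MYH row, the 3 most risen and 2 most fallen of each pathway list, and the 3 genes nearest each member, of which 2 pathway genes are not reported here. No sequence is printed, since none was used here. The alternatives were another pseudocount, no filter, median-ratio and quantile scaling, short genes left out, a replicate block, 1 mean per state, no trend and each library left out.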

Additional observations from a re-analysis of the deposited data

Results flagged for a closer look

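Among 20 groups of 4 values (5 genes and 5 shares in each state), 6 had 1 library that lay far from the other 3, by the gap to its nearest neighbour divided by the range. For normally distributed values chance alone gives about 1 such group in 20, and several of these values are parts of one another. In undifferentiated female replicate 2, MYH3 was at 8.88 FPKM, MYH7 at 0.418 FPKM and the share of the 3 muscle forms in the sum of the 5 genes at 4.21%, each above the other 3 undifferentiated libraries. In undifferentiated male replicate 1, the MYH1 row was at 0.0278 FPKM and made 1.27% of the sum of the muscle forms, where the other 3 libraries were listed at 0. With 3 values at 0 any remaining value above 0 is flagged, so nothing is read from these flags. In differentiated male replicate 1, MYH9 was at 148 FPKM against 84.8 to 94.9 FPKM in the other differentiated libraries.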

How the results depend on the processing

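The 5 calls between the states kept their direction and stayed called under all 16 alternatives each, with log2 differences of 9.52 to 11.14 for MYH3, 7.60 to 10.61 for MYH7, 3.82 to 7.33 for the MYH1 row, -1.48 to -1.08 for MYH9 and -1.31 to -0.95 for MYH10, and limma adjusted p of at most 0.0137. The counts of all genes called stayed within 1.5 times. Median-ratio scaling raised the median of all genes by 0.20 and gave 3220 genes higher and 2920 lower, in place of 2339 and 4137. MYH9 and MYH10 stayed lower under it, at -1.08 and -0.95. With a pseudocount of 0.1, the difference of MYH7 over MYH3 was 0.42, that of the MYH1 row over MYH3 was -2.87 and over MYH7 -3.29, neither of the MYH1 ratios being called any longer, and the difference of the MYH7 state effect between the sexes was -0.25 in place of 0.78. These ratios rest on undifferentiated values near 0. Among results that were not called, leaving out 1 library moved the sex difference of the MYH1 row between -0.16 and 0.54, the difference of state effects between -0.28 and 1.13 for the MYH1 row, -1.12 and 0.21 for MYH3 and -0.56 and 0.13 for MYH9, and the MYH10 share difference between -0.24 and 0.47 percentage points. Leaving out 1 of 2 libraries assumes that the lone one varies like the other groups.

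Libraries with the same replicate number did not deviate together (r of -0.0591 to 0.0684 across genes), so the numbers were not taken as pairs. With a replicate block by sex and number the 5 calls held. For the shares and ratios an exact sign-flip test of 4 pairs cannot go below p = 0.125, so the replicate block left the differences of 95.8 percentage points for the muscle share and of -1.99, -5.69 and -3.70 for the log2 ratios of MYH7 to MYH3, MYH1 to MYH3 and MYH1 to MYH7 uncalled (adjusted p = 0.188). No sex difference could be had with the block.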

Other observations

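Undifferentiated female replicate 2 also had the highest values of some other muscle genes among the undifferentiated libraries. MYOG, which rose with differentiation, was at 129.6 FPKM in it, against 66.0, 53.6 and 40.5 FPKM in the other undifferentiated libraries, and MYOD1, which fell with differentiation, was at 221 FPKM, against 156, 186 and 171 FPKM. It was the highest undifferentiated library for all 3 tested sarcomeric light chains, 4 of 7 thick filament genes, 4 of 6 slow and 4 of 5 fast fibre genes, and 7 of 22 regulators. The share of all tested genes that were highest in it is not given here, so these counts lack a background. MEF2C, the most risen regulator, was highest in undifferentiated male replicate 1, at 9.63 FPKM against 8.06 FPKM in female replicate 2. None of the 4 proliferation markers, the 7 fibroblast markers or the 8 genes of the non-muscle actin cytoskeleton was highest in female replicate 2.

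Of the 9950 identifiers named in both the deposited table and the identifier table, 826 carried different symbols. Of the 4 members named in both, MYH1 and MYH7 differed and MYH3 and MYH9 did not.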
